A study of Homo sapiens with 6 samples.

Results

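Glycolysis and pyruvate metabolism were examined through 40 genes, chosen by symbol from the 60605 genes of the deposited expression table. They encode glucose and lactate carriers, the enzymes of each glycolytic step, the enzymes that set the level of fructose 2,6-bisphosphate, the pyruvate dehydrogenase complex with its kinases, and a few gluconeogenic and glucose phosphate enzymes. Of these 40, 39 passed the filter on low counts, as did 16003 genes of the table; FBP1, a gluconeogenic phosphatase, held between 2 and 20 counts per library and was not tested. The RNA came from SW620, an established human colorectal cancer cell line derived from a lymph node metastasis. One group of 3 libraries came from cells that carried a lentiviral pLVX-IRES-Puro construct of ELAPOR1, a transmembrane protein of endosomes and lysosomes, and the other 3 from cells with the empty vector. Both groups received virus at a multiplicity of infection of 20, packaged in HEK293T cells, and were then kept under puromycin at 2 ug/ml in medium with 10% serum. The labels do not say whether the libraries of a group came from separate transductions, clones or cultures, so each p-value reflects the variation among these 6 libraries alone, and that variation may be technical.

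Glycolysis splits glucose into pyruvate in the cytosol and yields ATP and NADH. Pyruvate is then either reduced to lactate and exported, or oxidised to acetyl-CoA in mitochondria by the pyruvate dehydrogenase complex, which the pyruvate dehydrogenase kinases switch off by phosphorylation. Most steps are served by several isoforms that differ in regulation and tissue distribution, and many tumour cells, colorectal cancer cells among them, make lactate even when oxygen is present. Many glycolytic genes are known targets of hypoxia-inducible factors and of MYC.

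The libraries held between 16401813 and 20571924 counts. ELAPOR1 stood at 1.26, 1.2 and 0.95 FPKM (fragments scaled to exonic length and library total) in the vector libraries and at 2310, 2282 and 2239 FPKM in the ELAPOR1 libraries, where it took 2.06% to 2.12% of all counts. Summed FPKM of 12 colon epithelial markers ran from 2012 to 2104 in vector and from 1832 to 1857 in ELAPOR1 libraries. By the test named below, 5 of the 11 tested markers were lower and 1 higher, beside 11.4% and 10.0% of all tested genes. The keratins KRT8, KRT18 and KRT19 led the sum and CDX1 reached at most 0.06 FPKM. Immune markers summed to between 3.96 and 4.99 FPKM over both groups and endothelial markers to at most 0.32 FPKM, with MS4A1, CDH5, KDR and TEK among those listed at 0 in every library. Fibroblast markers, mostly LUM, summed to between 5.82 and 6.37 FPKM in vector and between 8.54 and 10.6 FPKM in ELAPOR1 libraries, while the collagens COL1A2 and COL3A1 reached at most 0.01 FPKM. Of 4 tested fibroblast markers 0 were lower and 2 higher, while 0 of 4 tested immune and 0 of 2 tested endothelial markers passed the test. The part of these markers in the results below was not tested.

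Transcripts of the glycolytic pathway were lower in ELAPOR1 cells at most steps from glucose uptake to lactate. Of the 4 tested genes of the pyruvate dehydrogenase complex 0 fell and 1 rose, too few to set against the shares of all tested genes. By edgeR's quasi-likelihood test with Benjamini-Hochberg adjustment over all tested genes, 22 of the 39 tested members fell (56.4%), against 11.4% of all tested genes, and 3 rose (7.69%), against 10.0%. Over both directions 21.4% of all tested genes passed. The median log2 fold change of the members was -0.14, against 0.0041 for all tested genes. All 3 ELAPOR1 libraries lay under all 3 vector libraries for 23 members (17.4% of all tested genes) and above them for 5 (16.4% of all tested genes). Of the 22, 7 fell by at least 0.5 on the log2 scale and 7 by less than 0.2. Together the members took 1.59%, 1.58% and 1.63% of counts in the vector libraries and 1.43%, 1.39% and 1.43% of the counts other than ELAPOR1 in the ELAPOR1 libraries. In bulk RNA, fewer cells that express a gene and less of its RNA per cell cannot be told apart.

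Replicate 2 had the lowest value of its group for 18 of the 39 members in vector and for 24 in ELAPOR1 libraries. How often it was the lowest over all tested genes was not counted. Without replicate 2 of both groups, an alternative chosen after seeing the data, 18 members fell and 1 rose.

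**Figure D1:**
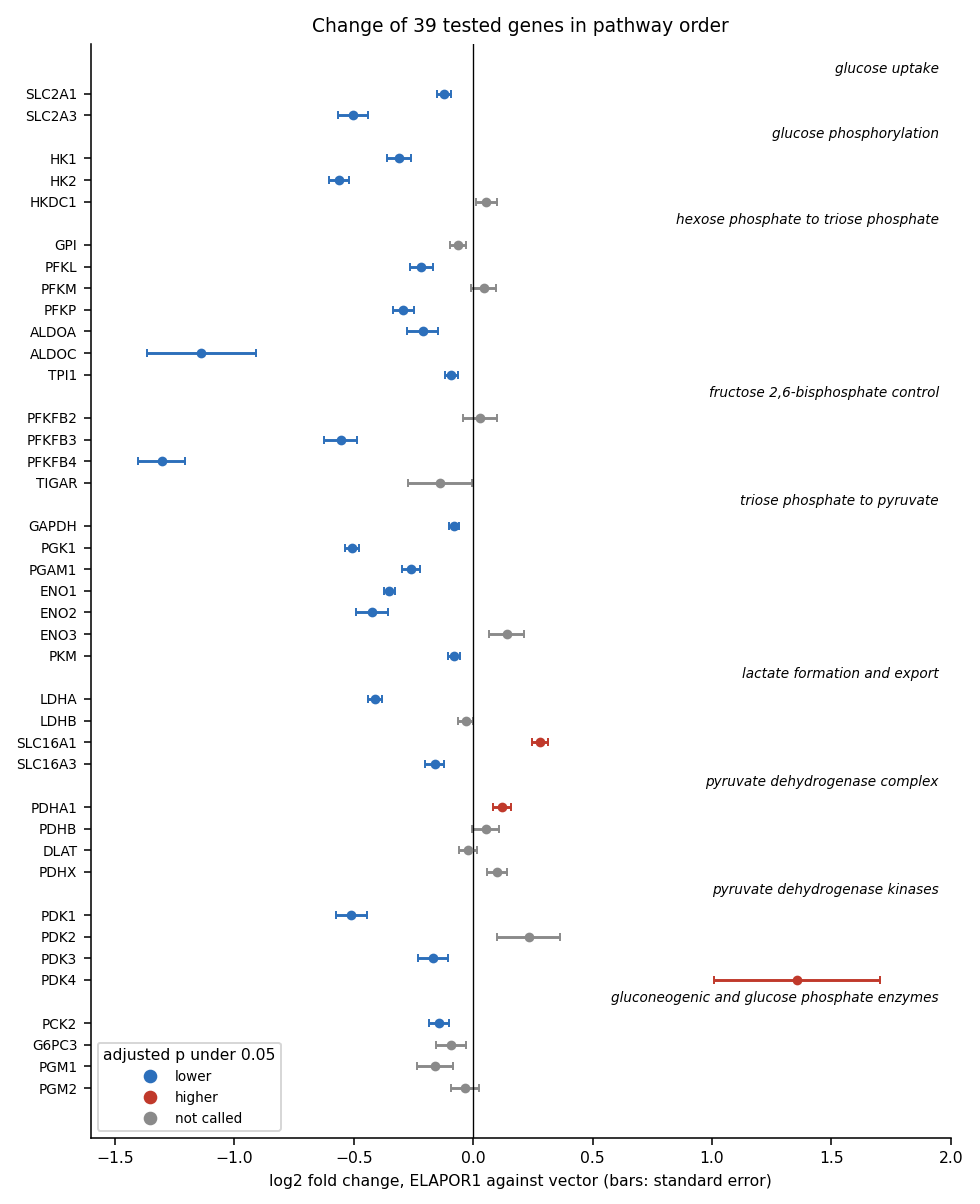
Log2 fold change of ELAPOR1 over vector for the 39 tested members (horizontal axis), ordered by pathway step. Error bars are standard errors back-calculated from the F statistic of the test. 22 members fell and 3 rose; the falls of at least 0.5 are those of SLC2A3, HK2, ALDOC, PFKFB3, PFKFB4, PGK1 and PDK1.

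Promoter sequence is shown for 4 members to set an isoform that fell, LDHA, beside one that did not pass the test, LDHB, and to add PGK1 and ALDOC, which also fell; all 4 were picked after their values were seen. Each window is the 250 bases before a RefSeq start (GRCh38.p14), printed 5′ to 3′ on the gene's strand. Capitals mark ACGTG or GCGTG, the core letters of the hypoxia-inducible factor element, or their reverse complements CACGT and CACGC; overlapping matches are merged into 1 stretch. LDHA and LDHB encode the muscle and heart type subunits of lactate dehydrogenase, PGK1 encodes phosphoglycerate kinase, and ALDOC is an aldolase isoform best known from brain. The windows lie at chr11:18394313-18394562 (plus strand) for LDHA, chr12:21657843-21658092 (minus strand) for LDHB, chrX:78103998-78104247 (plus strand) for PGK1 and chr17:28576896-28577145 (minus strand) for ALDOC. Those of LDHB and PGK1 lie inside the deposited gene spans, far from their 5′ ends at chr12:21757857 and chrX:77910739.
LDHA: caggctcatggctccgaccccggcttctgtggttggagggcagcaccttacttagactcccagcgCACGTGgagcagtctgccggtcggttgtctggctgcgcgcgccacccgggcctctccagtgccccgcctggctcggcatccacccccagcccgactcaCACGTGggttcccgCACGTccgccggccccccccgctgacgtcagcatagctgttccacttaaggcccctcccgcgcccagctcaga
LDHB: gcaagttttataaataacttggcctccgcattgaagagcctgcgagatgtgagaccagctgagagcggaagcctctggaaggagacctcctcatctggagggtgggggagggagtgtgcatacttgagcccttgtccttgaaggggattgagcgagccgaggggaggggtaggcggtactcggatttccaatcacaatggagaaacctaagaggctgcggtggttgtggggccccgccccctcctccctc
PGK1: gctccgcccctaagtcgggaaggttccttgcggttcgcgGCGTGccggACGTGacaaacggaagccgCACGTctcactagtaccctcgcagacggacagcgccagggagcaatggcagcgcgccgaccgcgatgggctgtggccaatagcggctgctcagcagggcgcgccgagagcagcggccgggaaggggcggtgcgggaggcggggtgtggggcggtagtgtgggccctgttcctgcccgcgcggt
ALDOC: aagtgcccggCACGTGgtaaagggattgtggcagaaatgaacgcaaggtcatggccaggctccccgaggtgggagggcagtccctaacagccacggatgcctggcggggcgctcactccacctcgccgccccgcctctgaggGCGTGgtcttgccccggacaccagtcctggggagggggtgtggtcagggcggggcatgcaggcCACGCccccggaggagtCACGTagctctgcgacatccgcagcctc
The LDHA window holds 3 stretches, the PGK1 window 3, the ALDOC window 4 and the LDHB window 0. RefSeq windows were matched for 37 of the 40 members, and PFKFB2, SLC16A1 and SLC2A3 had no entry. A stretch was present in 12 of 21 matched members that fell (57.1%), in 7 of 13 that did not pass the test (53.8%), and in 56.9% of the 10881 tested genes matched. Over all 18322 windows the share was 48.3%. PDHB, which did not pass the test, had 5 stretches, and HK1 and PDK1, which fell, had 0. Each gene had a single window, at the start nearest its deposited 5′ end, so other starts were not searched. A match is a description of these letters and not evidence of a bound site.

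Both glucose transporters fell. SLC2A1, the widely expressed transporter GLUT1, stood at 96.0, 92.2 and 98.8 FPKM in vector and 88.6, 84.1 and 87.2 FPKM in ELAPOR1 libraries, a log2 fold change of -0.12 ± 0.030 (SE; adjusted p = 0.00115). SLC2A3, the high-affinity transporter GLUT3, stood at 21.6, 18.3 and 24.0 FPKM against 14.6, 12.5 and 17.3 FPKM, a log2 fold change of -0.50 ± 0.061 (adjusted p = 4.54e-10). The SLC2A3 call was far weaker by other methods. With DESeq2 its log2 fold change was -0.50 ± 0.18 (SE; adjusted p = 0.0296). By limma on log2(FPKM + 1) its adjusted p was 0.0472. The groups did not overlap for either gene, and replicate 2 was the lowest of its group each time. The FPKM of the pair summed to 117 ± 6.21 in vector and 101 ± 4.26 in ELAPOR1 cells (SD, n = 3 each), a change of -13.3%. The exact two-sided permutation test of 3 against 3 libraries gave p = 0.1, the smallest it can give.

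Of the 3 hexokinases, which trap glucose as glucose 6-phosphate, HK2 and HK1 fell and HKDC1 did not pass the test. HK2, the inducible isoform that is common in tumours (chr2:74834127-74893359, GRCh38), stood at 30.4, 28.2 and 28.9 FPKM in vector and 19.7, 18.6 and 20.1 FPKM in ELAPOR1 libraries. Its log2 fold change was -0.56 ± 0.041 (SE; adjusted p = 7.98e-19). HK1, the widely expressed isoform, ranged from 14.4 to 15.7 FPKM in vector and from 11.3 to 12.3 FPKM in ELAPOR1 libraries (log2 fold change -0.31, adjusted p = 9.17e-07). HKDC1, a hexokinase domain protein whose gene neighbours HK1, ranged from 25.5 to 27.8 and from 26.0 to 28.0 FPKM (log2 fold change 0.05, adjusted p = 0.438), so its groups overlapped. HK2 had the highest mean FPKM of the 3 in vector cells and HKDC1 in ELAPOR1 cells. The share of HK2 in summed hexokinase FPKM went from 41.2% ± 1.18 to 33.2% ± 1.19 and that of HKDC1 from 37.6% ± 1.60 to 46.5% ± 1.69 (SD, n = 3 each). Both shares had an exact permutation p of 0.1, the smallest possible, and 0.141 after adjustment over the 24 isoform shares computed in 9 families.

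The steps from glucose 6-phosphate to triose phosphate held 7 members, of which 5 fell, beside 11.4% of all tested genes. GPI, the isomerase to fructose 6-phosphate, did not pass the test (log2 fold change -0.06, adjusted p = 0.167), although its groups did not overlap. The liver-type and platelet-type subunits of phosphofructokinase 1, the committing step, fell: PFKP from between 16.6 and 17.4 FPKM to between 13.2 and 14.0 FPKM (log2 fold change -0.29, adjusted p = 1.22e-07), and PFKL from between 10.7 and 11.2 FPKM to between 8.99 and 9.72 FPKM (-0.22, adjusted p = 0.000307). The muscle-type PFKM stood at 8.90, 9.67 and 8.81 FPKM in vector and 9.44, 9.07 and 9.32 FPKM in ELAPOR1 libraries (log2 fold change 0.04, adjusted p = 0.648), and its groups overlapped. Its share of phosphofructokinase FPKM was 24.6% in vector and 28.7% in ELAPOR1 cells (exact permutation p = 0.1, adjusted 0.141). Without strand, reads of PFKM cannot be told apart from those of SENP1, which overlaps it on the opposite strand.

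ALDOC fell furthest among the enzymes that carry the carbon flow. It stood at 1.93, 1.92 and 2.03 FPKM (98, 103 and 87 counts) in vector and at 0.67, 0.77 and 1.17 FPKM (29, 39 and 55 counts) in ELAPOR1 libraries, with no overlap. The log2 fold change was -1.14 ± 0.23 (SE; adjusted p = 7.29e-05), and on the log2(FPKM + 1) scale, which understates low genes, it was -0.67 by limma. ALDOA, the main aldolase at 12.4 to 14.4 FPKM in vector cells, ranged from 10.7 to 12.1 FPKM in ELAPOR1 cells (log2 fold change -0.21, adjusted p = 0.0117). That call was lost without vector replicate 3 (adjusted p = 0.110), without ELAPOR1 replicate 3 (0.119) and by limma on FPKM (0.0722). TPI1, triose phosphate isomerase, had a log2 fold change of -0.09 (adjusted p = 0.0111). Its call was lost without vector replicate 3 (0.176), ELAPOR1 replicate 1 (0.0518) or ELAPOR1 replicate 2 (0.0890), without replicate 2 of both groups (0.143) and by limma on FPKM (0.0567). Counts assigned to pseudogene copies of TPI1 came to 1.39% of those of the gene.

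**Figure D2:**
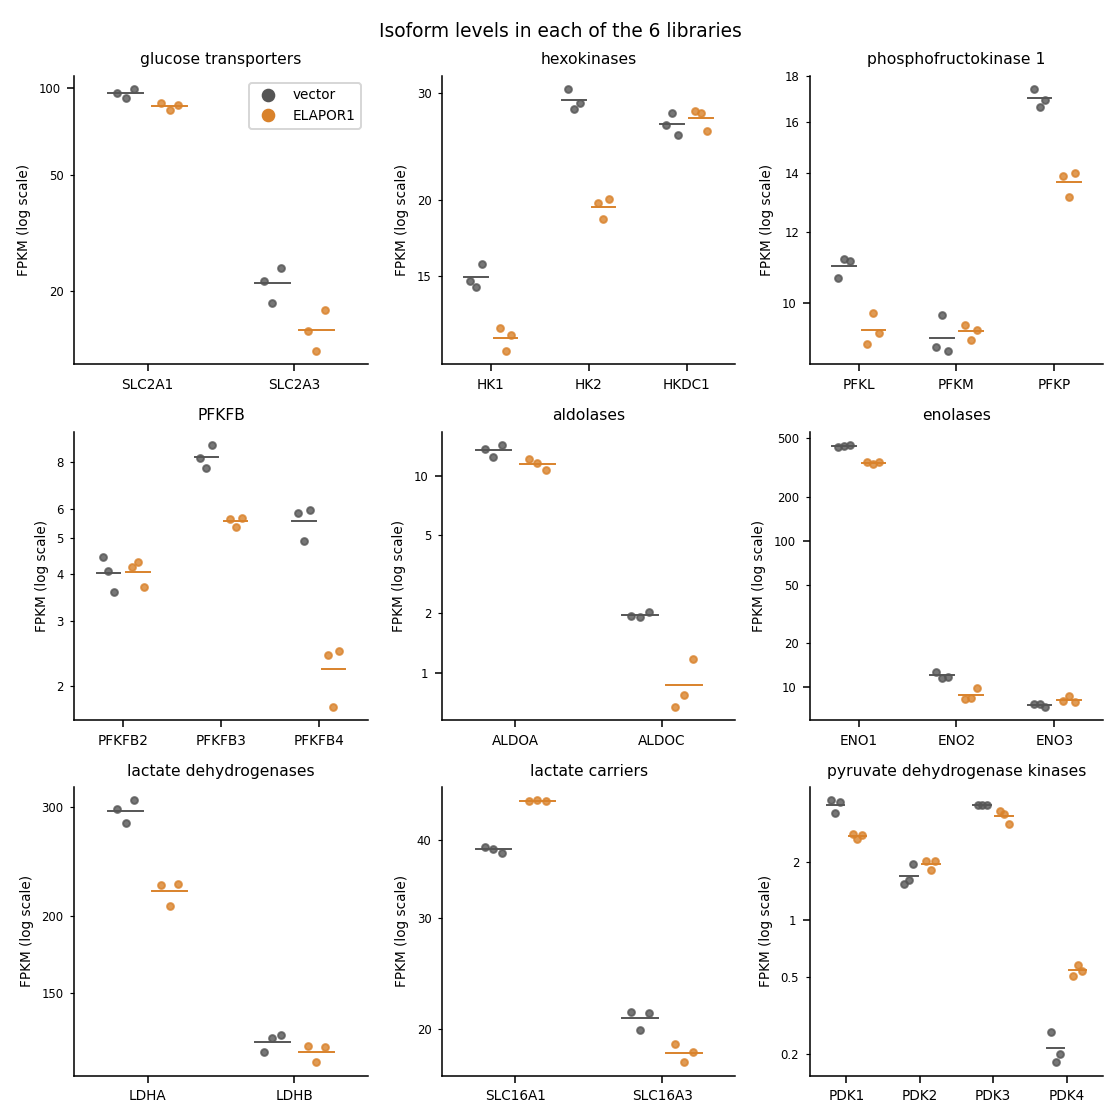
FPKM of each isoform in each library (vertical axis, log scale) for 9 families; points are libraries and bars are means of 3 vector (grey) or 3 ELAPOR1 (orange) libraries. HK2 moved from above HKDC1 to below it, and PFKFB4 and LDHA fell with no overlap while PFKM and LDHB overlapped.

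The enzymes that set fructose 2,6-bisphosphate, the strongest activator of phosphofructokinase 1, included one of the largest falls. PFKFB4 (chr3:48517684-48562015) stood at 5.83, 4.91 and 5.96 FPKM in vector and 2.43, 1.76 and 2.49 FPKM in ELAPOR1 libraries, 2.47-fold lower (log2 fold change -1.30 ± 0.098 SE, adjusted p = 2.40e-18). PFKFB3, an isoform with high kinase activity (chr10:6144934-6254644), stood at 8.22, 7.71 and 8.92 FPKM against 5.62, 5.36 and 5.67 FPKM (log2 fold change -0.55 ± 0.068, adjusted p = 5.05e-10). Neither gene's groups overlapped. PFKFB2, the heart isoform, ranged from 3.58 to 4.46 FPKM in vector and from 3.70 to 4.31 FPKM in ELAPOR1 libraries (log2 fold change 0.03, adjusted p = 0.829). Its direction turned without vector replicate 3 (-0.045) or ELAPOR1 replicate 2 (-0.014), and the value was 0.10 without vector replicate 1 and 0.093 without ELAPOR1 replicate 3. TIGAR, a p53-induced phosphatase of this metabolite, had a log2 fold change of -0.14 (adjusted p = 0.537).

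Summed over the 3 PFKFB genes, FPKM went from 17.9 ± 1.04 to 11.8 ± 0.405 (SD, n = 3 each), a change of -33.8%. The order of the 3 in vector cells was PFKFB3, PFKFB4 and PFKFB2, and in ELAPOR1 cells it was PFKFB3, PFKFB2 and PFKFB4. The PFKFB4 share was 31.1% in vector and 18.7% in ELAPOR1 cells, and the PFKFB2 share was 22.6% and 34.4% (exact permutation p = 0.1 and adjusted 0.141 for both). The share of PFKFB3 was 46.3% and 46.9% (exact permutation p = 0.7). PFKFB2 overlaps YOD1 on the opposite strand, which held 4487 counts against 4554 for PFKFB2, so without strand the level, order and share of PFKFB2 are uncertain. UCN2 lies on the strand of PFKFB4 within its span, held 2.17% as many counts and also fell (log2 fold change -3.52, adjusted p = 8.44e-05).

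From triose phosphate to pyruvate, 6 of 7 members fell, beside 11.4% of all tested genes, with log2 fold changes from -0.08 to -0.51. GAPDH, which makes 1,3-bisphosphoglycerate, was the most abundant member at 1693, 1728 and 1713 FPKM in vector and 1614, 1576 and 1592 FPKM in ELAPOR1 libraries. Its log2 fold change was -0.08 (adjusted p = 0.00372) with no overlap, and the call was lost without replicate 2 of both groups (0.146). PGK1, which makes ATP in the next step (chrX:77910739-78129295), stood at 181, 173 and 191 FPKM against 126, 121 and 130 FPKM. Its log2 fold change was -0.51 ± 0.030 (SE; adjusted p = 7.41e-24). Its promoter is among those shown above. The span of PGK1 in the table overlaps ATP7A on the same strand, which held 6.08% as many counts and had a log2 fold change of -0.01.

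PGAM1, phosphoglycerate mutase, ranged from 75.5 to 78.2 FPKM in vector and from 60.2 to 66.5 FPKM in ELAPOR1 libraries (log2 fold change -0.26, adjusted p = 1.31e-07). ENO1, the ubiquitous enolase (chr1:8861000-8879190), stood at 434, 442 and 452 FPKM against 346, 335 and 345 FPKM (log2 fold change -0.35 ± 0.024 SE, adjusted p = 2.96e-20). ENO2, the neuronal isoform, ranged from 11.7 to 12.8 FPKM in vector and from 8.33 to 9.85 FPKM in ELAPOR1 libraries (log2 fold change -0.42, adjusted p = 7.13e-07). LRRC23 overlaps ENO2 on the same strand and held 12.6% as many counts (log2 fold change 0.26, adjusted p = 0.358). ENO3, the muscle isoform, had a log2 fold change of 0.14 (adjusted p = 0.180). ENO3 overlaps PFN1 on the opposite strand, which held 95210 counts against 3746 for ENO3 and rose (log2 fold change 0.13, adjusted p = 0.000176), and without strand their reads cannot be told apart. Enolase FPKM in total changed by -22.3%, and ENO1 made up 95.7% of it in vector and 95.2% in ELAPOR1 cells. PKM, which makes pyruvate, had a log2 fold change of -0.08 (adjusted p = 0.0106), and gene counts do not separate its alternatively spliced forms. The PKM call was lost without vector replicate 3 (0.0849), without ELAPOR1 replicate 2 (0.111) and without replicate 2 of both groups (0.165).

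At the lactate step, LDHA fell and LDHB did not pass the test. LDHA (chr11:18394560-18408425), whose subunit favours the reduction of pyruvate, stood at 298, 283 and 307 FPKM in vector and 225, 208 and 225 FPKM in ELAPOR1 libraries, a log2 fold change of -0.41 ± 0.027 (SE; adjusted p = 6.90e-21). LDHB (chr12:21635342-21757857) stood at 121, 127 and 128 FPKM against 124, 116 and 123 FPKM, a log2 fold change of -0.03 (adjusted p = 0.569). With 1 library left out this value ran from -0.063 (without vector replicate 1) to -0.0013 (without ELAPOR1 replicate 2), and it was 0.015 without replicate 2 of both groups. The LDHA groups did not overlap and those of LDHB did. LDHA made up 70.2% ± 1.13 of lactate dehydrogenase FPKM in vector and 64.4% ± 0.275 in ELAPOR1 cells (SD, n = 3 each; exact permutation p = 0.1, adjusted 0.141).

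Of the lactate carriers, SLC16A1 rose and SLC16A3 fell. SLC16A1, the carrier MCT1 (chr1:112911847-112957593), rose from 39.0, 38.8 and 38.2 FPKM to 46.2, 46.3 and 46.2 FPKM, a log2 fold change of 0.28 ± 0.033 (SE; adjusted p = 2.01e-10). SLC16A3, the carrier MCT4 that is typical of lactate exporting cells, fell from between 19.9 and 21.3 FPKM to between 17.7 and 18.9 FPKM (log2 fold change -0.16, adjusted p = 0.000853). Neither gene's groups overlapped. SLC16A1 held 65.0% of the summed FPKM in vector and 71.6% in ELAPOR1 cells (exact permutation p = 0.1, adjusted 0.141), and the sum was 8.55% higher. SLC16A3 overlaps CSNK1D on the opposite strand, which held 21665 counts against 19867 for SLC16A3 and also fell (log2 fold change -0.10, adjusted p = 0.0361), and without strand their reads cannot be told apart.

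**Figure D3:**
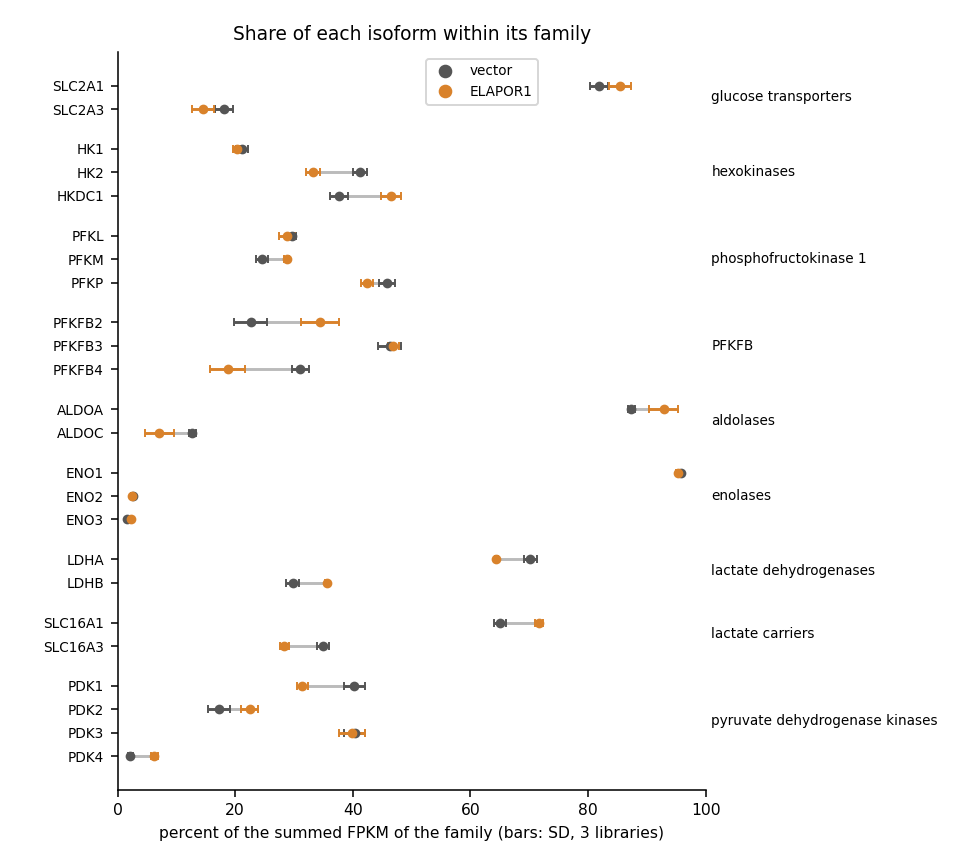
Share of each isoform in the summed FPKM of its family (horizontal axis, percent); points are means and bars SD of 3 vector (grey) or 3 ELAPOR1 (orange) libraries. HK2 went from 41.2% to 33.2%, PFKFB4 from 31.1% to 18.7% and LDHA from 70.2% to 64.4%.

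In the pyruvate dehydrogenase complex, 0 of 4 tested members fell and 1 rose, beside 11.4% and 10.0% of all tested genes. With 4 genes, 0 falls cannot be told apart from the share of all tested genes. PDHA1, the catalytic alpha subunit, stood at 39.5, 41.3 and 39.0 FPKM in vector and 42.3, 44.3 and 41.8 FPKM in ELAPOR1 libraries, and rose (log2 fold change 0.12, adjusted p = 0.0112). This call was lost without vector replicate 3 (0.0812), without ELAPOR1 replicate 2 (0.111), without replicate 2 of both groups (0.0533) and by limma on FPKM (0.101). PDHB, the beta subunit, DLAT, the acetyltransferase, and PDHX, the binding protein of the complex, had log2 fold changes of 0.05, -0.02 and 0.10 and adjusted p of 0.586, 0.780 and 0.0914. With 1 library left out, PDHB ran from 0.016 (without ELAPOR1 replicate 1) to 0.084 (without vector replicate 2), and DLAT from -0.039 (without vector replicate 2) to 0.0017 (without ELAPOR1 replicate 3). PDHX overlaps APIP on the opposite strand, which held 9369 counts.

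Its inhibitory kinases differed among themselves. PDK1 (chr2:172555373-172608669), the kinase best known as a hypoxia target, stood at 4.18, 3.58 and 4.09 FPKM in vector and 2.80, 2.64 and 2.75 FPKM in ELAPOR1 libraries (log2 fold change -0.51 ± 0.064 SE, adjusted p = 9.22e-10). An unnamed gene on its opposite strand held 9.58% as many counts and also fell (-0.53, adjusted p = 0.0442). PDK4 (chr7:95583499-95596516), the kinase induced by fasting, stood at 0.26, 0.18 and 0.20 FPKM (23, 17 and 15 counts) against 0.51, 0.58 and 0.54 FPKM (38, 51 and 44 counts). PDK4 rose, with a log2 fold change of 1.36 ± 0.35 (SE; adjusted p = 0.00211), but the call was lost by limma on log2(FPKM + 1) (0.35, adjusted p = 0.0755) and without replicate 2 of both groups (0.0525). The groups of PDK1 and those of PDK4 did not overlap.

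PDK3 fell by 0.17 on the log2 scale (adjusted p = 0.0419) but did not pass with DESeq2 (0.0928), by limma on FPKM (0.153), without ELAPOR1 replicate 3 (-0.11, adjusted p = 0.325), or without vector replicate 1 (0.0699), 2 (0.0890) or 3 (0.0920) or ELAPOR1 replicate 2 (0.0533). PDK2 had a log2 fold change of 0.23 (adjusted p = 0.218). The share of PDK1 in the summed kinase FPKM was 40.2% in vector and 31.4% in ELAPOR1 cells, that of PDK2 was 17.2% and 22.4%, and that of PDK4 was 2.17% and 6.26%. Each had an exact permutation p of 0.1, the smallest possible, and 0.141 after adjustment. On raw counts the PDK4 share differed by 1.66 percentage points, against 4.09 on FPKM, and the PDK2 share by 3.07, against 5.20.

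Among the gluconeogenic and glucose phosphate enzymes, 1 of 4 tested members fell, beside 11.4% of all tested genes. PCK2, the mitochondrial phosphoenolpyruvate carboxykinase, ranged from 32.8 to 33.9 FPKM in vector and from 28.6 to 31.2 FPKM in ELAPOR1 libraries (log2 fold change -0.14, adjusted p = 0.00758), and its call was lost without ELAPOR1 replicate 1 (0.0781). PGM1, which interconverts glucose 1-phosphate and glucose 6-phosphate, and PGM2 had log2 fold changes of -0.16 and -0.03 (adjusted p = 0.130 and 0.761). PGM1 passed without ELAPOR1 replicate 3 (0.042), but its log2 fold change was -0.077 without ELAPOR1 replicate 2 and -0.096 without vector replicate 3. It overlaps ITGB3BP on the opposite strand, which held 4542 counts against 4030 for PGM1. PGM2 turned to 0.021 without vector replicate 2. G6PC3, a glucose 6-phosphatase, had a log2 fold change of -0.09 (adjusted p = 0.328).

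Around the pathway, 8 lists of other carbohydrate genes held 136 genes in the table, of which 108 were tested. Of these, 21 fell (19.4%) and 13 rose (12.0%), beside 11.4% and 10.0% of all tested genes, with a median log2 fold change of -0.014. In the pentose phosphate pathway, which branches off at glucose 6-phosphate, 2 of 10 tested genes fell and 2 rose. TKT, a transketolase, rose by 0.24 on the log2 scale, and PGLS, the lactonase, had a log2 fold change of -0.23. The call of PGLS was lost without replicate 2 of both groups (0.155). In the citric acid cycle with malic enzymes, 3 of 25 fell and 4 rose, among them ME3 (0.65), ME1 (0.32) and IDH2 (-0.21). Of 10 genes of the cytosolic NADH shuttles 2 fell and 2 rose, among them GPD1L (0.58), SLC25A10 (-0.34) and GOT1 (-0.28).

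Glycogen and glucose phosphate handling had 7 falls and 3 rises among 20 tested genes, beside 11.4% and 10.0% of all tested genes. PPP1R3B, a glycogen targeting subunit of protein phosphatase 1, had a log2 fold change of -0.80, PGM2L1 of -0.42 and EPM2A, the phosphatase laforin, of 0.38. By limma on FPKM these calls were lost (adjusted p = 0.0952, 0.0528 and 0.328), as were those of PPP1R3B (0.0671) and PGM2L1 (0.0624) without replicate 2 of both groups. For mitochondrial pyruvate entry, 1 of 10 fell and 1 rose: PDPR, a regulator of pyruvate dehydrogenase phosphatase, rose by 0.34 (adjusted p = 9.93e-10) and PDP2, a phosphatase subunit, had -0.16. PDP2 lost its call without vector replicate 2 (0.0705), ELAPOR1 replicate 1 (0.0532) or ELAPOR1 replicate 3 (0.0662).

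Of the other hexose and monocarboxylate carriers 2 of 14 fell, SLC2A8 (-1.05) and SLC2A13 (-0.84), and SLC16A10 rose (0.34). Among all tested genes 11.4% fell and 10.0% rose. SLC2A8 was at -0.68 without vector replicate 3 (adjusted p = 0.178) and lost its call without ELAPOR1 replicate 2 (0.0622). By limma on log2(FPKM + 1) the calls of SLC2A8 (0.167) and SLC16A10 (0.158) were lost. SLC2A13 lost it without vector replicate 3 (0.0735), ELAPOR1 replicate 1 (0.0725) or ELAPOR1 replicate 2 (0.105), and SLC16A10 without vector replicate 3 (0.0537) or ELAPOR1 replicate 3 (0.0758). Among the fructose, galactose and hexosamine branches 3 of 15 fell, namely GFPT1 (-0.20), the first enzyme of hexosamine synthesis, TKFC (-0.14) and GNPNAT1 (-0.12). TKFC lost its call with DESeq2 (adjusted p = 0.0586) and without any 1 library other than vector replicate 1 (up to 0.126). GNPNAT1 lost its call without ELAPOR1 replicate 2 (0.0820). Of 4 tested isoforms of glycolytic enzymes outside the 40, BPGM, the bisphosphoglycerate mutase, fell by 0.27. Its call was lost without vector replicate 1 (0.0979) or 2 (0.118), or ELAPOR1 replicate 1 (0.0665) or 3 (0.196). The BPGM call was also lost with DESeq2 (adjusted p = 0.0758) and without the filter on low counts (0.0565).

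Of 24 tested hypoxia-induced genes outside glycolysis, 17 fell and 0 rose, beside 11.4% and 10.0% of all tested genes. The median log2 fold change of this list was -0.52. The falls of NDRG1 (-2.34), MT1X (-1.23) and ADM, adrenomedullin (-1.13), were its largest; on the log2(FPKM + 1) scale of limma NDRG1 was at -1.23 and ADM at -0.75. The list summed to 393, 368 and 403 FPKM in vector and to 279, 265 and 292 FPKM in ELAPOR1 libraries, with replicate 2 the lowest of both groups; its part in the members' falls was not tested. Of 21 tested regulators of glycolytic transcription 3 fell and 5 rose, beside the same 11.4% and 10.0% of all tested genes. ARNT2, a partner of hypoxia-inducible factors, had a log2 fold change of -0.48 and MAX, the partner of MYC, of 0.25. PPARGC1A, a coactivator of oxidative metabolism, had 1.72 on 1 to 18 counts per library, and it lost its call without vector replicate 1 (0.151) or 2 (0.261) or ELAPOR1 replicate 1 (0.0675) or 3 (0.0958), and stood at 2.79 without vector replicate 3. HIF1A fell by 0.20 (adjusted p = 1.34e-06) and MYC rose by 0.13 (adjusted p = 0.00157); these genes were named after their values were seen.

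**Figure D4:**
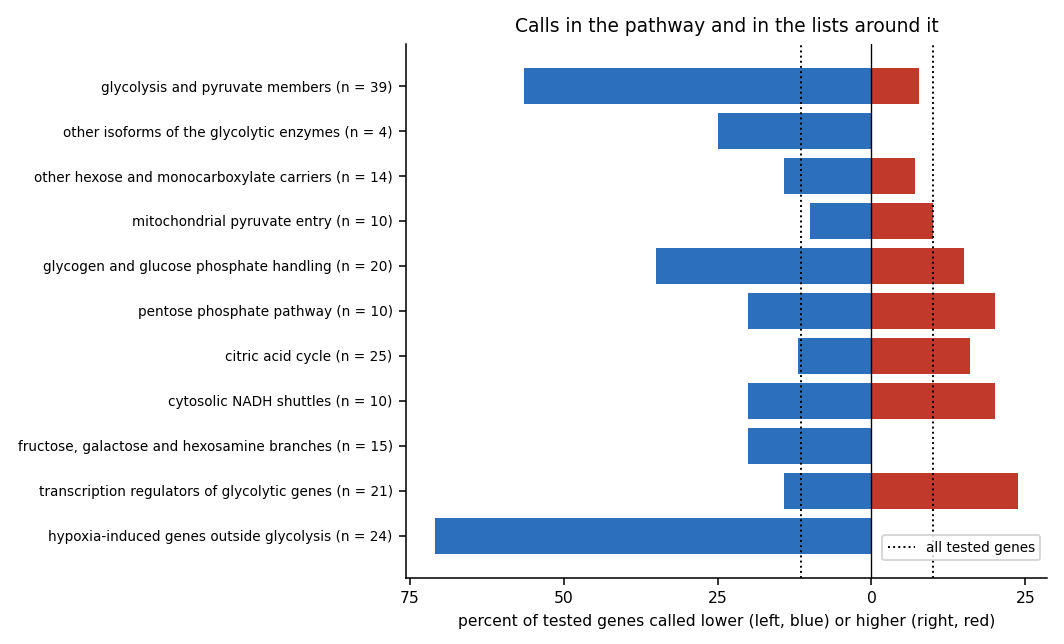
Percent of tested genes called lower (blue, left) or higher (red, right) among the 39 members and in 10 gene lists around them; dotted lines give the 11.4% and 10.0% of all tested genes. The members and the 24 hypoxia-induced genes have the longest bars to the left.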

How the data were processed

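Poly(A) RNA of 3 vector and 3 ELAPOR1 libraries of SW620 was made from 1 ug of total RNA with random priming, per the labels. The authors deposited read counts per gene without normalization and FPKM values, which are per exonic length and library total. The submitters' processing notes name HISAT2 2.0.1, HTSeq 0.6.1, cutadapt 1.9.1, the GRCh38 build and DESeq2. Whether reads were counted by strand was not given in the sources used here. Columns were matched to libraries by name, with K read as KIAA1324, the older symbol of ELAPOR1.

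The counts of the 16003 genes kept by filterByExpr were scaled by TMM factors and compared between groups with the two-sided quasi-likelihood test of edgeR 4.0.16 (R 4.3.3). P-values were adjusted over all 16003 genes by Benjamini-Hochberg, and genes under 0.05 were called. The standard errors given with edgeR values were back-calculated as the absolute log2 fold change over the square root of the F statistic. Levels are given in FPKM. Isoform shares and family sums were compared by exact permutation tests, which cannot go below p = 0.1 with 3 against 3 libraries. Libraries of one group differed from each other by a mean chi-square of 2.43 to 3.62 per gene, so no library pair was merged. The members and gene lists were chosen with earlier results of these data known. The text names all 40 members and, from each list around them, up to 3 called genes with the largest change, though some genes that this rule selects are left out here; HIF1A, MYC and PFN1, ATP7A and other overlapping genes are named besides. Promoters came from RefSeq (GRCh38.p14), at the listed start nearest the deposited gene's 5′ end, which for LDHB and PGK1 was still far from it.

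Over all tested genes, same-numbered libraries did not deviate together (correlations -0.0156, -0.0256 and -0.0161), so the numbers were not used as pairs. Among the members that fell, replicate 2 was the lowest of its group for 15 in vector and for 16 in ELAPOR1 libraries. The same was not counted over all tested genes. Data of 15686 genes were also simulated for this comparison, with 50 genes changed at each fold named next and the rest unchanged. There edgeR recovered 16% of 1.1-fold, 84% of 1.25-fold, 92% of 1.5-fold and 100% of 2-fold changes, with 9 false calls among 155. In the real data 21.4% of tested genes passed, so these rates need not hold for the members. Genes with the lowest mean counts were not among those changed in the simulation, so the rates do not cover such genes. Alternatives were DESeq2 1.42.0, limma 3.58.1 on log2(FPKM + 1) and log2(FPKM + 0.1) (genes reaching 0.5 FPKM in 3 libraries), other scalings and filters, a replicate block, an adjusted p under 0.01, the table without ELAPOR1, and leaving out each library.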

Additional observations from a re-analysis of the deposited data

How the results depend on the processing

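No called member reversed its direction of fold change in any of the alternatives run, and 17 of the 25 called members stayed called in all 18 alternatives. The 22 falls among members became 18 to 21 with 1 library left out, 19 by limma and 22 with a replicate block. The 3 rises became 2 to 3 with 1 library left out and 1 by limma at either pseudocount or without replicate 2 of both groups. Over all genes, 3427 calls became 2133 and 2098 by limma on log2(FPKM + 1) and log2(FPKM + 0.1), 2245 at an adjusted p under 0.01, 2212 without replicate 2 of both groups, 2723 to 3187 with 1 library left out and 3361 with a replicate block. Of the other pathway genes, 13 rises became 8 and 7 by limma and 8 to 13 with 1 library left out, and 21 falls became 14 to 20 with 1 library left out and 9 without replicate 2 of both groups. The median over members, -0.14, ran from -0.15 to -0.11 with 1 library left out. Of the shares, that of PFKFB3 (0.564 points higher) was -2.14 points on raw counts and ranged from -0.386 to 1.57 with 1 library left out. That of PDK3 (-0.487) was 2.82 points on raw counts and ranged from -1.31 to 0.814. GPI passed with library sizes alone (adjusted p = 0.0457). The cause of these differences was not tested. Among members that did not pass the test, the direction of PFKFB2, LDHB, DLAT and PGM2 turned in some alternatives. In simulated data for this comparison, where far fewer genes changed than were called here, 16% of 1.1-fold changes were recovered.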
